A study of Caenorhabditis elegans with 18 samples.

Results

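The flp and nlp genes encode short neuropeptides of Caenorhabditis elegans. They were taken as genes whose name in the deposited annotation is flp or nlp with a number, with a probe set mapped to 1 gene only, and nlp-24 to nlp-34 were left out. That gave 53 genes, 25 flp and 28 nlp, of 17603 genes with a unique probe set. Where a gene had several such probe sets, the one with the highest mean over all 18 conditions was kept. The array names are used here, and 2 of them have changed since: nlp-37 is now pdf-2 and nlp-42 is now mihp-2.

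Whole wild-type N2 animals were measured on Affymetrix arrays, 3 for each of 18 conditions, and the deposited tables give 1 mean intensity (a linear brightness) and 1 error per condition. Larvae hatched into S-complete medium with E. coli HB101 at 25 mg per ml (fed) or without it (starved, which arrests the first larval stage, L1), at 20 C. Fed and starved larvae were each sampled at 0, 1, 3, 6, 12, 15 and 24 h after hatching. The labels give the fed larvae as L1 up to 12 h, as L1-L2 at 15 h and as L2 at 24 h, and every starved sample as L1, so the later fed minus starved comparisons set different larval stages side by side. The other conditions were larvae given food for 3 h after 12 h without it (refed), larvae whose food was taken away for 3 h after 12 h of feeding (food removed), larvae kept in M9 buffer without food for 3 h, and embryos 2 h before hatching, when they are at the 3-fold stage. Hatching spanned 2.5 h, and 0 h is the time when 50% had hatched. Each value is therefore a population of whole animals, in which a smaller neuronal share of the RNA and less messenger per neuron cannot be told apart.

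Neuropeptides are cut from larger precursors by proprotein convertases, trimmed and amidated in dense-core vesicles, and released to act on G protein-coupled receptors. The FMRFamide-like (flp) genes encode amidated peptides of one structural family, while the neuropeptide-like (nlp) genes are a mixed group that belongs to several families. In C. elegans they tune locomotion, feeding, egg laying, defecation, sleep-like states and responses to food. The precursor genes are mostly expressed in neurons, although some, such as nlp-40, act from the intestine.

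A probe set was called detected where the authors' detection p, used here as a score, was below 1e-10. By that measure 38 of the 53 genes were detected in all 18 conditions, 10 in some of them and 5 in none. The 5 were flp-23, nlp-2, nlp-4, nlp-22 and nlp-39, and flp-23 stood at the floor of 5 throughout. nlp-22, which promotes quiescence during the larval molts, had intensities of 7 to 13. No fold is given for these genes. In each condition 10873 to 12332 of the 22548 worm probe sets were detected.

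The fed arrays were hybridized on 3 days and the starved S-complete arrays on another 3, with 0 days shared, so food and hybridization day cannot be told apart in the fed minus starved comparison. The embryo arrays shared their 3 days with the starved ones, and the M9 arrays shared 3 with the fed ones. The refed and food-removed arrays were all run on 1 further day that no other condition shared. Comparisons over time within fed or within starved larvae do not cross this split.

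The clearest pattern was a climb of neuropeptide messengers during starvation. Summed over the 53 genes, intensity was 13364, 14047, 15949, 17981, 20574, 21355 and 24380 in starved larvae at 0, 1, 3, 6, 12, 15 and 24 h. In fed larvae the sum was 12149, 12786, 12704, 10737, 11682, 12878 and 9807 at the same times. The starved sums increased at every step while the fed sums stayed between 9807 and 12878, and bright genes weigh most in both. Of the 48 genes detected anywhere, 27 had their highest starved value at 24 h and 14 at 12 h.

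**Figure D1:**
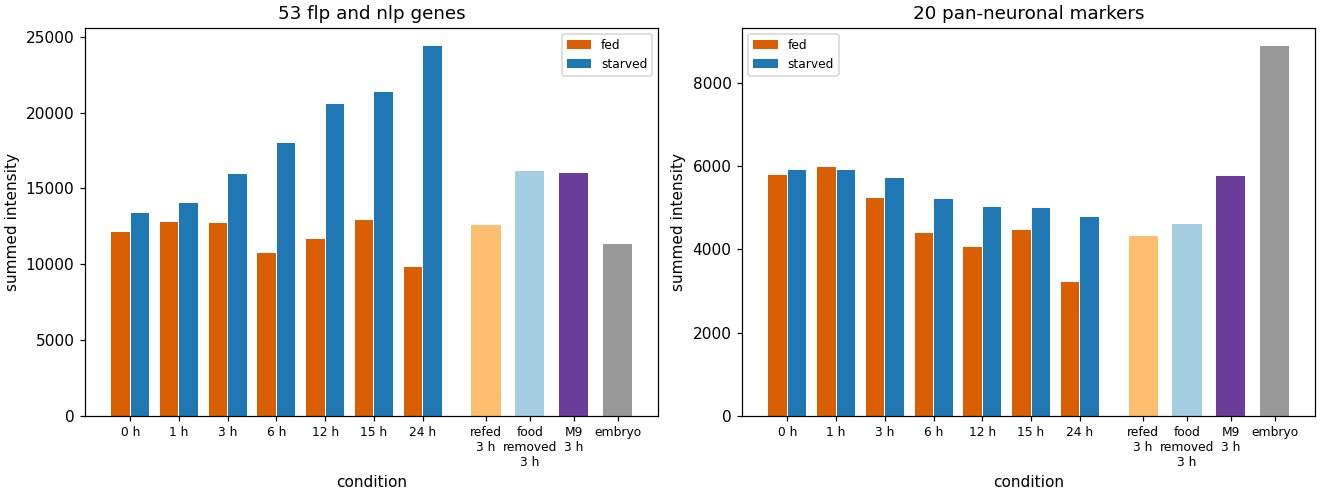
Summed intensity (vertical axis, linear, from 0) of the 53 flp and nlp genes and of 20 pan-neuronal markers in each condition, with fed bars left of starved bars at each time. The neuropeptide sum reached 24380 in starved larvae at 24 h against 13364 at 0 h, while the pan-neuronal sum was 4786 at 24 h against 5923 at 0 h.

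Markers shared by all neurons did not follow this climb. The 20 pan-neuronal markers, genes of synaptic vesicles and axons such as rab-3 and unc-13, were all measured and 18 were detected, while unc-33 and rgef-1 were not. Their summed intensity was 5923, 5904, 5718, 5211, 5021, 4998 and 4786 in starved larvae over the 7 times. It was 5788, 5994, 5234, 4396, 4055, 4470 and 3225 in fed larvae. Both series were thus lower at 24 h than at hatching, and the fed one more so.

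Between 0 and 24 h of starvation 8 genes rose and none fell. The difference of means was tested against its combined deposited error with 4 degrees of freedom and Benjamini-Hochberg adjustment over 22548 probe sets, since the authors' deposited table holds no p for this pair. Of all probe sets 1.77% were called higher and 1.55% lower. Without adjustment, 30 of the 53 genes were higher and 3 lower at p under 0.05, against 10.4% higher and 11.3% lower of all probe sets. The median log2 change was 0.78 over the 53 genes and 0.00 over all probe sets, and 47 genes had a positive change. The flp genes (median 0.83, 4 called) and the nlp genes (median 0.73, 4 called) had like medians.

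The 8 were flp-9, flp-14, flp-15, flp-24, nlp-7, nlp-12, nlp-15 and nlp-17. nlp-12, the cholecystokinin-like peptide of the stretch-sensing neuron DVA that adjusts locomotion, had 590, 682, 778, 972, 1286, 1726 and 1942 in starved larvae from 0 to 24 h. It increased at each step, by 1.72 ± 0.17 on the log2 scale in all (± standard error, adjusted p = 0.0445). flp-9 had 611, 677, 882, 1060, 1344, 1429 and 1777 at the same starved times, a log2 change of 1.54 ± 0.15 (adjusted p = 0.0429). flp-24, one of the peptides of the stress-induced sleep neuron ALA, was 657 ± 42 at 24 h and 245 ± 21 at 0 h (± deposited error). That is a log2 change of 1.42 ± 0.15, with an adjusted p of 0.0437.

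The other 5 called genes also climbed stepwise, except flp-14. flp-14 was 190 ± 13 at 24 h and 74 ± 8 at 0 h in starvation, with a dip at 15 h, and changed by 1.36 ± 0.18. nlp-15, which encodes orcokinin-like peptides, had 301, 333, 385, 498, 565, 624 and 757, a change of 1.33 ± 0.15. nlp-7, implicated in the control of egg laying, was 506 ± 27 at 24 h and 232 ± 16 at 0 h. flp-15 was 1986 ± 109 at 24 h and 917 ± 55 at 0 h, and nlp-17 was 1579 ± 69 and 879 ± 42. Adjusted p ran from 0.0429 to 0.0493 over the 8 genes, close to the threshold of 0.05, so the number of calls depends on how many probe sets are tested. With the adjustment over detected probe sets alone it was 26 rather than 8, while the share of those probe sets called was 15.0% in either direction, against 3.32% of all probe sets before.

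A few genes did not climb. Chosen after their values were seen, flp-8 and nlp-16 were the lowest of the 53 in this comparison. flp-8, one of several flp genes that limit turning during male mating, had 258, 229, 235, 208, 175, 116 and 83 in starved larvae, a log2 change of -1.64 ± 0.28 that missed the threshold (adjusted p = 0.0783). In fed larvae it had 297, 256, 178, 157, 251, 321 and 300. The fed series thus returned to its starting level while the starved one did not. nlp-16 was 45 ± 9 at 24 h and 98 ± 13 at 0 h of starvation, a log2 change of -1.14 ± 0.34 with an adjusted p of 0.168.

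flp-21 had the largest positive change of the 53 genes in starvation without passing the test. It encodes a ligand of NPR-1, the receptor that sets social feeding. It had 54, 52, 58, 58, 89, 89 and 218 in starved larvae, and 80, 75, 57, 34, 153, 173 and 68 in fed larvae. The starved 24 h value stood alone above the other starved times, and the fed values peaked at 12 and 15 h. From 0 to 24 h of starvation the log2 change was 2.00 ± 0.34 (adjusted p = 0.0647).

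**Figure D2:**
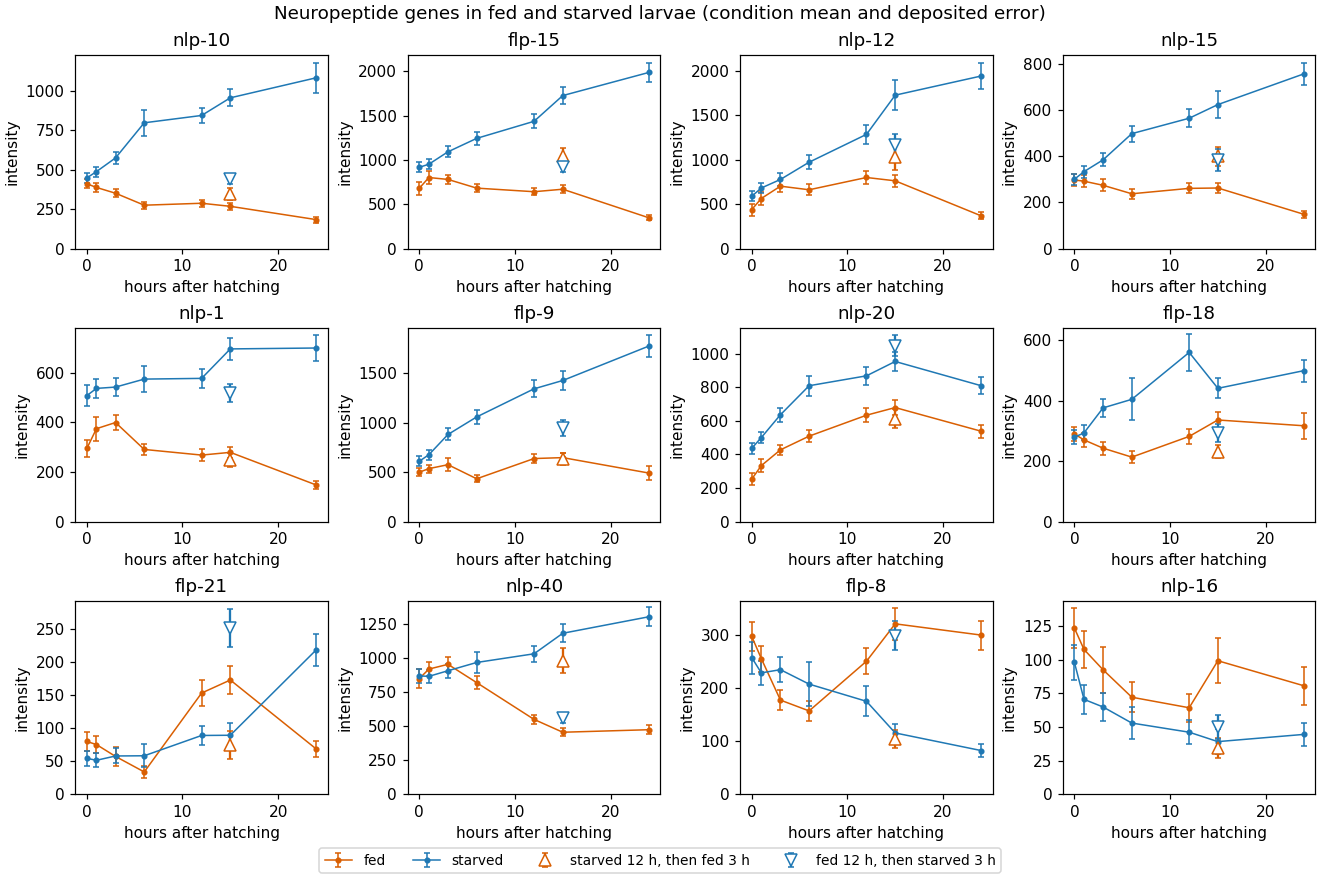
Intensity (vertical axes, linear, from 0) against hours after hatching for 12 genes in fed and starved larvae. Points are condition means, bars the deposited errors, and open triangles at 15 h the refed and food-removed larvae. nlp-12 reached 1942 in starved larvae at 24 h, against 369 in fed larvae, and flp-8 ran the other way, with 300 in fed and 83 in starved larvae.

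With food, no neuropeptide gene passed the threshold between 0 and 24 h. The same test called 0 of 53 genes and 0% of all probe sets, and 9 genes and 20.8% when adjusted over detected probe sets alone. At an unadjusted p under 0.05, 14 genes were lower and 1 higher at 24 h than at 0 h, against 13.5% lower and 11.5% higher of all probe sets. The gene that was higher, nlp-20, had 538 ± 40 at 24 h and 253 ± 34 at 0 h. The median log2 change was -0.02 over the 53 genes, and 22 had a positive change. Many fed values were lowest at 6 h (21 of the 48 detected genes) or at 24 h (16 genes).

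Matched for hours after hatching, though not for larval stage at 15 and 24 h, fed larvae had lower neuropeptide messenger than starved larvae. In a linear model of log2 intensity over the 7 matched times (limma, with time as a factor and Benjamini-Hochberg adjustment over 22548 probe sets), 21 of the 53 genes were lower in fed larvae and 2 were higher. Of all probe sets 16.8% were called lower and 13.5% higher. Each condition is 1 mean, so the 7 times are the only repeats in this model. Its standard errors and p therefore measure how constant a difference was over time, not the spread between arrays or cultures. The median difference was -0.52 over the 53 genes and 0.00 over all probe sets. Among flp genes 10 were lower and 0 higher, and among nlp genes 11 were lower and 2 higher. Fed values were below starved ones at all 7 times for 26 genes. The model was also fitted to the 14507 probe sets detected in any of the 14 conditions. There 29 of the neuropeptide genes were lower and 1 higher, against 3515 and 3084 of those probe sets (45.5% in either direction). Without the 6, 12 or 15 h pair, 12, 11 and 12 genes were called in either direction rather than 23. The counts over all probe sets were then 5192, 4756 and 5050 rather than 6831 (30.3%). In each of these fits the share of the 53 genes called was about that of all probe sets, so the excess of calls was lost. The direction was kept, with 10, 9 and 10 genes lower, 2 higher each time, and medians of -0.43, -0.43 and -0.51.

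nlp-10 had the largest difference among the detected genes. It had 411, 388, 351, 275, 288, 268 and 184 in fed larvae from 0 to 24 h, against 448, 488, 575, 797, 844, 955 and 1083 in starved larvae. The groups were close at hatching and moved apart in both directions. Its fed minus starved difference over the 7 times was -1.24 ± 0.31 on the log2 scale (limma adjusted p = 0.0251), a call lost without the 6, 12 or 15 h pair. nlp-1, a peptide that the olfactory neuron AWC releases onto the interneuron AIA, had 295, 375, 400, 291, 268, 279 and 147 in fed larvae, against 508, 537, 543, 575, 578, 697 and 700 in starved larvae. Here the 2 series did not overlap even at 0 h, and the difference was -1.06 ± 0.22 (limma adjusted p = 0.0132).

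flp-15 had 681, 802, 780, 683, 642, 670 and 348 in fed larvae, against the starved climb to 1986, a difference of -1.01 ± 0.27. Every one of its fed values lay below every starved one. For flp-9 the fed values were 500, 536, 576, 433, 638, 648 and 491, and the difference was -0.94 ± 0.20. Their limma adjusted p were 0.0326 for flp-15 and 0.0148 for flp-9. Over the 7 fits that each leave out 1 time, flp-15 lost its call in 4 and flp-9 and nlp-1 in 0. The 2 other unique probe sets of flp-15 gave -1.02 and -0.93.

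The remaining named genes lower in fed larvae were nlp-15 (-0.92), flp-22 (-0.86), nlp-13 (-0.86), nlp-7 (-0.85), nlp-21 (-0.75), nlp-14 (-0.75) and nlp-11 (-0.74), all as log2 differences from limma. Of the 7 fits without 1 time, nlp-15 lost its call in 6, flp-22, nlp-7 and nlp-21 in 4 each and nlp-13 in 2, while nlp-14 and nlp-11 kept theirs in all 7. nlp-14, like nlp-15, encodes orcokinin-like peptides. nlp-21 differed from the others in its course: its starved values stayed between 213 and 269, while its fed values were 210, 213, 168, 138, 126, 139 and 75. flp-22 had 356, 371, 305, 210, 216, 274 and 205 in fed larvae and 384, 395, 474, 519, 545, 544 and 612 in starved larvae. nlp-2 was called lower as well, but none of its values was detected.

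The 2 genes called higher in fed larvae lay near the limit of detection. nlp-16 had a lowest value of 64, a median of 92 and a highest value of 123 in fed larvae, against 39, 53 and 98 in starved larvae, where 5 of the 7 values were detected. Fed values were higher at each time, and the difference was 0.65 ± 0.12 (limma adjusted p = 0.0102). A second probe set of nlp-16 gave 1.39. nlp-23 was not detected in any of these 14 conditions, so its difference of 0.74 is given without a fold.

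**Figure D3:**
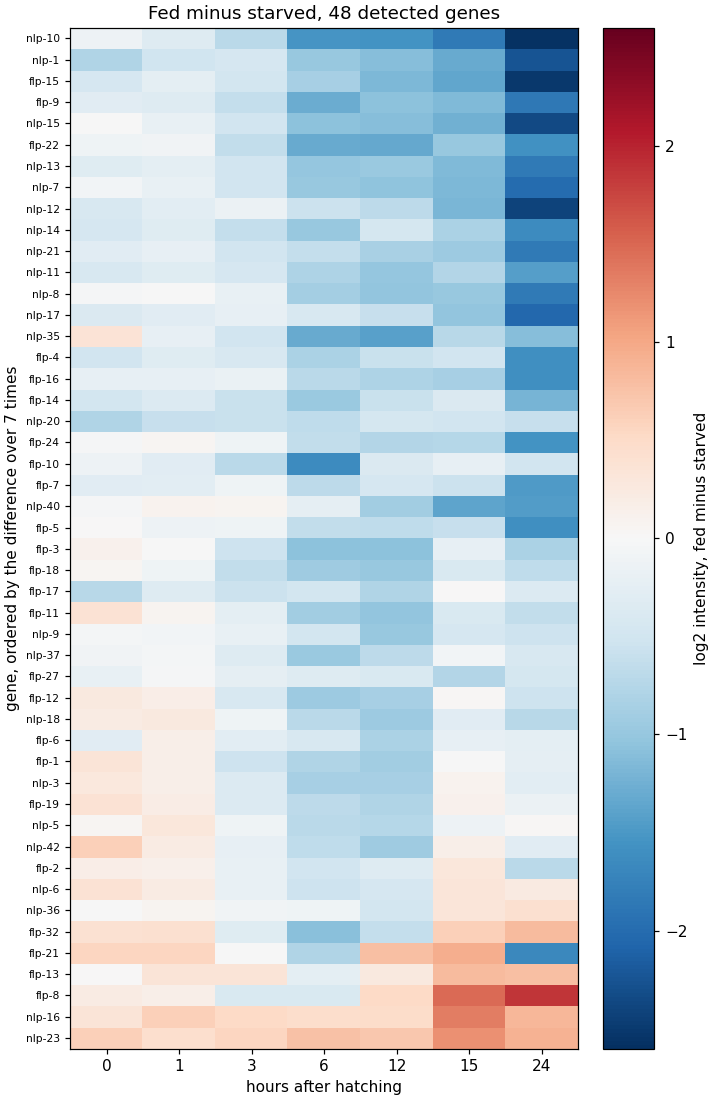
Fed minus starved log2 intensity at each of 7 times (horizontal axis) for the 48 detected genes, ordered from the lowest to the highest difference over the times. Blue marks lower and red higher in fed larvae. The lowest cell is nlp-10 at 24 h (-2.56) and the highest is flp-8 at 24 h (1.86).

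flp-1 and flp-11, tied to locomotion and sleep, differed less evenly over time. flp-1, a peptide gene of the AVK interneurons needed for normal sinusoidal movement, had 376, 353, 266, 233, 286, 381 and 384 in fed larvae, against 299, 316, 387, 400, 535, 383 and 450 in starved larvae. The fed series dipped between 3 and 12 h and met the starved one again at 15 h, and its difference over the times was -0.28 ± 0.17 (limma adjusted p = 0.253). flp-11, the main peptide of the sleep neuron RIS, had 244, 209, 179, 124, 164, 221 and 262 in fed larvae, against 189, 199, 214, 233, 333, 289 and 404 in starved larvae. Its difference was -0.40 ± 0.18 (limma adjusted p = 0.142).

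Of the 5 genes tied to sleep and lethargus (flp-11, flp-13, flp-24, nlp-8 and nlp-22), none passed the limma threshold over the 7 times. Their median difference was -0.40. nlp-8, a peptide of ALA, came nearest, with 302, 311, 300, 238, 212, 234 and 168 in fed larvae, against 308, 314, 345, 441, 433, 463 and 596 in starved larvae. The series were alike until 1 h and parted afterwards, with a difference of -0.71 ± 0.24 (limma adjusted p = 0.0613). flp-13, another ALA peptide, was near the limit of detection, with 41 to 102 in fed and 41 to 61 in starved larvae, and its difference was 0.33 ± 0.14 (limma adjusted p = 0.122).

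Of the NPR-1 ligand genes flp-18 was called and flp-21 was not, and the difference between them was not tested. flp-18, which also signals through NPR-5, had 290, 270, 243, 213, 282, 336 and 317 in fed larvae, against 279, 293, 376, 404, 559, 440 and 499 in starved larvae. It was lower in fed larvae from 1 h on, with a difference of -0.52 ± 0.14 (limma adjusted p = 0.0307), a call lost in 5 of the 7 fits without 1 time. flp-21 crossed over, as its values above show, and its difference was 0.05 ± 0.34 (limma adjusted p = 0.958). flp-14, which was called as well, had a difference of -0.65 ± 0.11 (limma adjusted p = 0.00816). nlp-12 missed the threshold at -0.81 ± 0.27 (limma adjusted p = 0.0654), and its fed values were lower at 7 of 7 times. Its difference varied from -0.15 at 3 h to -2.4 at 24 h, and such change over time widens this standard error.

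The median fed minus starved difference over the 53 genes was -0.03, -0.07, -0.34, -0.71, -0.79, -0.39 and -0.71 from 0 to 24 h. It was thus larger from 3 h on than at 0 and 1 h, but did not grow steadily. A slope of the fed minus starved difference on log2 of hours plus 1 was fitted with limma. It was called negative for 7 of the 53 genes and positive for none, against 3.24% and 2.14% of all probe sets. The 7 were nlp-10 (-0.50 per unit), nlp-15 (-0.43), nlp-7 (-0.37), nlp-8 (-0.37), flp-22 (-0.33), flp-9 (-0.31) and nlp-13 (-0.30). In these genes, picked by the slope itself, the fed minus starved differences ran from -0.32 to -0.01 at 0 h and from -2.56 to -1.58 at 24 h. These calls rested on having all 7 times: leaving out 1 time gave 0 to 2 calls, against 0.115% to 3.39% of all probe sets. The authors' deposited 2-factor analysis of variance called far more, at an adjusted p under 0.05. For food it called 48 of the 53 genes and 68.9% of all probe sets, and for food by time 45 genes and 54.7%.

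At single times the authors' deposited p for each pair of conditions was adjusted over 22548 probe sets. At 0 h it called 0 of the 53 genes and 0% of all probe sets, and at 1 h 0 genes and 0.00443%. At 3 h it called 0 genes and 1.03%. At an unadjusted p under 0.05 the counts were 2, 3 and 12 genes at 0, 1 and 3 h, against 6.30%, 14.3% and 21.5% of all probe sets. The recomputed test on the deposited errors also called 0 genes at these 3 times. The median difference over the 53 genes was -0.03 at 0 h, -0.07 at 1 h and -0.34 at 3 h.

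From 6 h on genes passed by the adjusted authors' p, all of them lower in fed larvae. At 6 h 3 genes were lower and 0 higher, against 0.798% and 0.763% of all probe sets. These were flp-22 (-1.31 ± 0.16), flp-9 (-1.29 ± 0.15) and nlp-11 (-0.81 ± 0.14), with adjusted authors' p of 0.0427, 0.0490 and 0.0490. None of the 3 passed in the recomputed test. At 12 h 11 genes were lower and 0 higher, against 5.30% and 4.59%. The largest differences there were nlp-10 (-1.55 ± 0.14), flp-22 (-1.34 ± 0.15), flp-15 (-1.16 ± 0.12), nlp-15 (-1.11 ± 0.16), nlp-1 (-1.11 ± 0.16) and flp-9 (-1.07 ± 0.14).

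At 15 h 5 genes were lower and 0 higher, against 2.50% and 2.19% of all probe sets. One of them was nlp-40, the intestinal peptide that signals the expulsion step of the defecation cycle. Its fed values were 847, 917, 952, 818, 549, 455 and 473, against 867, 864, 905, 965, 1029, 1179 and 1299 in starved larvae. The series coincided up to 3 h and parted between 6 and 12 h, and at 15 h the difference was -1.37 ± 0.12 (authors' test, adjusted p = 0.0244). The others at 15 h were nlp-10 (-1.83 ± 0.14), flp-15 (-1.36 ± 0.12), nlp-1 (-1.32 ± 0.15) and nlp-11 (-0.76 ± 0.12).

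At 24 h 14 genes were lower and 0 higher in fed larvae, against 3.91% and 3.87% of all probe sets. nlp-10 had 184 ± 19 in fed and 1083 ± 94 in starved larvae, which is 5.89-fold lower with food (authors' test, adjusted p = 0.0196). flp-15 had 348 ± 26 and 1986 ± 109, 5.70-fold lower in fed larvae, and nlp-12 had 369 ± 39 and 1942 ± 149, 5.27-fold lower. nlp-15, nlp-1 and nlp-7 followed at 5.09-fold, 4.75-fold and 4.03-fold lower in fed larvae. For flp-21 the fed value was 68 ± 12 and the starved one 218 ± 24, 3.19-fold lower with food (authors' test, adjusted p = 0.0387). flp-5, flp-7, flp-16, flp-22, nlp-8, nlp-11 and nlp-40 made up the 14, between 2.69-fold and 3.55-fold lower. flp-7 is secreted by neurons to drive fat loss in the intestine through NPR-22. By the recomputed test flp-8 passed at 24 h in the other direction. It had 300 ± 27 in fed and 83 ± 12 in starved larvae (1.86 ± 0.25, recomputed test, adjusted p = 0.0351).

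Genes of peptide processing and dense-core vesicles were examined next, on a list that also holds the peptidases nep-1 and nep-2. Of the 22 listed genes 20 were measured. Over the 7 times 11 were lower in fed larvae and 0 higher by limma, against 16.8% and 13.5% of all probe sets, with a median difference of -0.36. The 11 include nep-2, which was detected in 6 of the 18 conditions. The convertase egl-3 (-0.63 ± 0.18), its chaperone-like partner sbt-1 (-0.74 ± 0.19) and the amidating enzyme pghm-1 (-0.83 ± 0.21) were among the 11, while the carboxypeptidase egl-21 just missed (-0.64 ± 0.20, limma adjusted p = 0.0534). These 4 were also the list's called genes between 0 and 24 h of starvation, where egl-3 changed by 0.99, egl-21 by 1.13, sbt-1 by 0.97 and pghm-1 by 1.08 on the log2 scale. The list's median in that comparison was 0.12, and unc-104, the motor that carries the vesicles, changed by -0.52.

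Of 100 genes named as neuropeptide receptors, 77 were detected somewhere. Between 0 and 24 h of starvation 0 were called, against 1.77% higher and 1.55% lower of all probe sets, with a median of -0.17. Over the 7 times 45 were lower in fed larvae and 1 was higher by limma, against 16.8% and 13.5% of all probe sets. Their median was -0.31, and some of the 45, such as frpr-10 and npr-31, were never detected. The largest difference among those detected in all conditions was frpr-18 (-1.21 ± 0.13). The receptor of nlp-12, ckr-2, differed by -0.51 ± 0.11 (limma adjusted p = 0.0139) and its change during starvation was -0.69. Pan-neuronal markers moved the same way over the 7 times, with 8 of 20 lower in fed larvae, 0 higher and a median of -0.26. Of the 8, rgef-1 was never detected, and ric-19 and unc-104 are also on the processing list. Whether the share of neuronal messenger sets part of the food difference was not tested.

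Markers of other tissues were mixed over the 7 times. By limma 1 of 10 intestine markers was higher in fed larvae and 2 lower, 2 of 9 epidermis markers were higher and 1 lower, 0 of 10 body wall muscle markers were higher and 3 lower, and 4 of 10 pharynx markers were higher and 1 lower. Between 0 and 24 h of starvation their medians were -0.91, -0.04, -1.25 and -1.19. Of other peptide hormone genes 5 of 6 were measured, among them nlp-37 as pdf-2, and over the 7 times pdf-1, a pigment-dispersing factor that promotes roaming, was the only one called (-0.72 ± 0.16, limma adjusted p = 0.0170). Between 0 and 24 h of starvation 2 of the 5 were called higher, snet-1 with a log2 change of 1.31 (adjusted p = 0.0415) and pdf-1 with 0.95 (adjusted p = 0.0437).

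**Figure D4:**
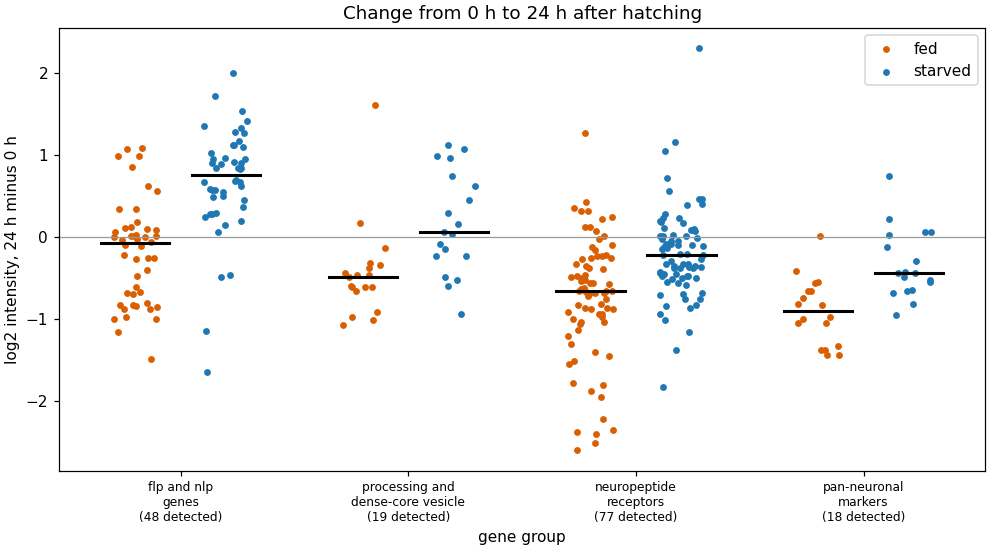
Log2 change between 0 and 24 h (vertical axis) in fed and starved larvae for detected genes of 4 groups, 1 point per gene, with black bars at the medians. In starved larvae the medians were 0.76 for 48 flp and nlp genes, 0.07 for 19 processing and vesicle genes, -0.22 for 77 receptors and -0.44 for 18 pan-neuronal markers.

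Larvae starved for 12 h were then given food for 3 h, and set against larvae starved for 15 h. Refed larvae had lower values for 49 of the 53 genes, with a median log2 difference of -0.74 (0.00 over all probe sets), but the adjusted authors' p called only 2 lower and 0 higher, against 1.16% and 0.878% of all probe sets. Without adjustment 26 genes were lower and 2 higher, against 11.6% and 10.2%. The 2 called genes were nlp-13, with 229 ± 21 in refed and 518 ± 31 in starved larvae (-1.18 ± 0.16, adjusted p just under the threshold), and nlp-11, with 328 ± 25 and 683 ± 39 (-1.06 ± 0.14, authors' test, adjusted p = 0.0371). In the recomputed test both had an adjusted p of 0.0519, and that test called nlp-10 instead, with 348 ± 37 in refed and 955 ± 54 in starved larvae (-1.46 ± 0.17, adjusted p = 0.0495).

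Larger differences did not pass. nlp-35 had 74 ± 11 in refed and 220 ± 21 in starved larvae (-1.57 ± 0.26, authors' test, adjusted p = 0.0551), and nlp-1 had 250 ± 28 and 697 ± 46 (-1.48 ± 0.19, authors' test, adjusted p = 0.124). The refed value of nlp-1 was close to that of larvae fed for 15 h, 279 ± 23. nlp-12 had 1036 ± 150 in refed larvae, between 763 ± 67 in fed and 1726 ± 170 in starved larvae at 15 h. Its refed minus starved difference, -0.74 ± 0.25, was the same as the median of the 53 genes. The refed levels of nlp-35 and nlp-1 were chosen after their values were seen. The 20 pan-neuronal markers had a median of -0.23 in this comparison, with 1 gene, ric-19, called lower. The processing list, which shares ric-19 and unc-104 with these markers, had a median of -0.53. Body wall muscle markers had a median of -0.84, lower than that of the neuropeptide genes, with 0 of 10 called, and the intestine, epidermis and pharynx lists had 0.02, -0.18 and -0.02. The part of tissue composition in the refed difference was not tested.

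**Figure D5:**
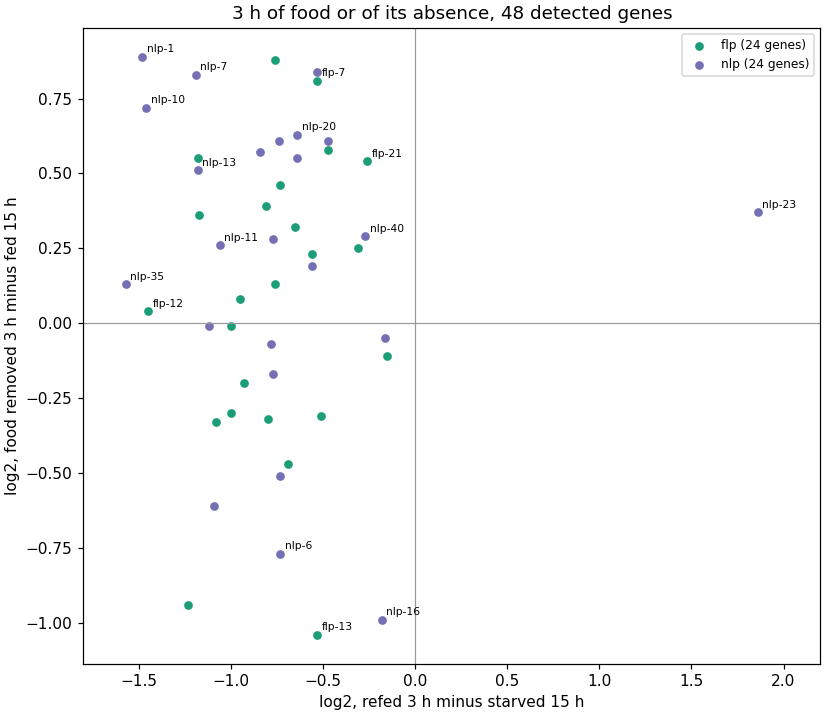
Each point is 1 of 48 detected genes, with the log2 difference of refed minus starved 15 h larvae on the horizontal axis and of food-removed minus fed 15 h larvae on the vertical axis. Most points lie left of 0, where nlp-35 is lowest at -1.57, and the vertical values run from -1.04 (flp-13) to 0.89 (nlp-1).

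Removing food for 3 h after 12 h of feeding gave the opposite direction for many genes, without calls after adjustment. Against larvae fed for 15 h, the adjusted authors' p called 0 genes (0.00443% of all probe sets), as did the recomputed test, and the median difference was 0.19. At an unadjusted p under 0.05, 13 genes were higher and 0 lower, against 4.34% higher and 5.33% lower of all probe sets. Against larvae fed for 12 h, 0 genes were called (0.0266% of all probe sets), again with 0 in the recomputed test, and 20 were higher and 0 lower without adjustment, against 7.90% and 8.44%. nlp-1 had 518 ± 36 with food removed, against 279 ± 23 in larvae fed for 15 h and 268 ± 23 in larvae fed for 12 h. flp-21 had 251 ± 29 with food removed, its highest value in any condition, against 173 ± 21 and 153 ± 19 in larvae fed for 15 and 12 h.

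In all, 31 of the 53 genes (58.5%) were lower in refed larvae than at 15 h of starvation and also higher with food removed than at 15 h of feeding, against 28.7% of all probe sets. Another 18 genes were lower in both comparisons. Taken singly, 49 genes were lower in refed larvae, while 33 were higher and 19 lower with food removed. Whether the same genes reversed beyond what these separate counts give was not tested. As the 2 switched conditions shared a hybridization day, they were also compared with each other, a comparison added after the data were seen. Refed larvae were lower for 46 genes (median -0.48). Markers of other tissues were as low or lower in several cases, with medians of -1.41 for epidermis, -0.85 for body wall muscle, -0.42 for pharynx and -0.33 for intestine, each with 1 gene called lower, and -0.20 for pan-neuronal markers with 0 called. Their part in the neuropeptide difference was not tested. The recomputed test called 0 genes against 4.48% of all probe sets, and at an unadjusted p under 0.05 it had 21 genes lower and 1 higher, against 12.4% and 13.3%. flp-21 was not detected in refed larvae (74 ± 22) and stood at 251 ± 29 with food removed (recomputed test, adjusted p = 0.0768). The ratio of these means is 3.37, which rests on an undetected value. flp-8 had 105 ± 17 in refed and 298 ± 27 in food-removed larvae. Of 6 genes with the opposite sign, the one at an unadjusted p under 0.05 was nlp-40, with 979 ± 94 in refed and 555 ± 35 in food-removed larvae, near its levels of 1029 and 549 after 12 h of starvation and of feeding.

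No neuropeptide gene passed between the starvation media. In M9 buffer at 3 h, against S-complete without food at 3 h, the adjusted authors' p called 0 of the 53 genes and 0% of all probe sets, and the recomputed test called 0. At an unadjusted p under 0.05 there were 5 genes, all higher in M9, against 3.18% of all probe sets. The median difference was 0.06. Since M9 and fed arrays shared hybridization days, fed larvae at 3 h were set against M9 larvae at 3 h, also a comparison added later. Fed larvae were lower for 47 of 53 genes, with a median of -0.46. Body wall muscle markers had a median of -0.49, intestine -0.45, pharynx -0.36, pan-neuronal -0.15 and epidermis -0.06, with 0 called in each, and their part in the neuropeptide difference was not tested. The same fed larvae against S-complete larvae at 3 h gave the median of -0.34 above. The recomputed test called 0 genes and 0% of all probe sets, and without adjustment 9 genes were lower and 0 higher, against 7.68% and 8.28%. nlp-10 had 351 ± 25 in fed larvae and 560 ± 43 in M9.

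Around hatching some neuropeptide genes were higher and others lower, and only higher ones passed the adjusted threshold. Starved larvae at 0 h were set against embryos 2 h before hatching, which shared hybridization days. The adjusted authors' p called 5 genes higher and 0 lower, against 1.15% and 1.25% of all probe sets. By sign alone 22 of the 53 genes were higher and 29 lower. At an unadjusted p under 0.05, 13 were higher and 14 lower, a count for which the share of all probe sets was not computed. nlp-20 had 436 ± 31 in hatchlings and 90 ± 11 in embryos, 4.85-fold higher (authors' test, adjusted p = 0.0436). nlp-17 and nlp-12 were both 3.32-fold higher, with 879 ± 42 and 590 ± 55 in hatchlings against 264 ± 17 and 178 ± 24 in embryos. flp-15 was 2.56-fold and flp-16 1.62-fold higher. In the recomputed test nlp-12 and flp-16 missed the threshold, with adjusted p of 0.0511 and 0.0539.

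Lower values in hatchlings did not pass the threshold. flp-21 had 54 ± 11 in starved hatchlings and 148 ± 19 in embryos (-1.45 ± 0.35, authors' test, adjusted p = 0.0877), and flp-11 had 189 ± 21 and 393 ± 34 (-1.06 ± 0.20, authors' test, adjusted p = 0.0576). The median over the 53 genes was -0.11, and pan-neuronal markers had a median of -0.68, with 2 of 20 called lower. Fed larvae at 0 h against the same embryos gave 0 calls, 0% of all probe sets and 0 in the recomputed test. At an unadjusted p under 0.05 there were 13 genes, 7 higher and 6 lower, against 16.2% of all probe sets. nlp-20 was 253 ± 34 in fed hatchlings, between the embryo and the starved hatchling.

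Other probe sets of the same genes had the same direction over the 7 times. The rule left 1 probe set for each of 8 genes that had several, with 12 others not used. In the fed minus starved difference over 7 times all probe sets of each of the 8 genes had the same sign. They differed in size for the dimmest ones: the 5 probe sets of flp-1 ran from -0.88 to -0.26, and the lowest came from a probe set detected in 8 conditions. The second probe set of flp-18 gave -0.78 against -0.52 for the one kept. No sequence of these genes or peptides is given here.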

How the data were processed

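The members and gene lists were chosen with earlier results of these data known. Affymetrix arrays (54, 3 per condition) were used; per the labels' protocols, 100 ng of RNA from cultures of 10000 larvae in 10 ml was amplified for each. The authors deposited mean intensities and their errors, with means below 5 raised to 5, detection p-values (treated as a score, detected below 1e-10), and p-values for pairs of conditions and analyses of variance, per the file headers. Which software and which normalization they used is not given in the sources used here. Their error, of a kind not stated, was used as a standard error and need not measure the spread between cultures. Each condition is 1 sample, and the precision is limited by 3 arrays each.

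Of 22625 probe sets 77 controls were left out. Log2 intensities of 14 conditions were fitted with limma 3.58.1 (R 4.3.3), with time as a factor and food. Pairs used the authors' p-values, or the difference over the combined errors with 4 degrees of freedom (scipy 1.17.1). Both tests were run on simulated data with independent noise and known differences. These simulations cover neither hybridization day, nor a food difference that changes with time, nor the unstated kind of the deposited error. All p were adjusted by Benjamini-Hochberg with a threshold of 0.05. Standard errors of single-pair log2 differences come from the deposited errors. Genes named were, over the 7 times, up to 12 called in each direction, for pairs up to 6 called in each direction and detected in the higher condition, and 9 fixed ones (flp-1, flp-11, flp-13, flp-14, flp-18, flp-21, nlp-8, nlp-12, nlp-22); other named ones were chosen after their values were seen.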

Additional observations from a re-analysis of the deposited data

Results flagged for a closer look

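In 7 genes the food difference changed with time by the limma test of the slope on log2 of hours plus 1. The slopes of the fed minus starved difference were -0.50 for nlp-10, -0.43 for nlp-15, -0.37 for nlp-7, -0.37 for nlp-8, -0.33 for flp-22, -0.31 for flp-9 and -0.30 for nlp-13, with adjusted p from 0.0159 to 0.0447. Each group holds 1 deposited mean per time, so no sample could be compared with others of its group.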

How the results depend on the processing

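Replicate arrays could not be paired because every condition is 1 deposited mean and the labels carry no replicate numbers. The fit over the 7 times did match fed and starved larvae by time. Over the 7 times, 23 genes were called, and 12, 11 and 12 without 6, 12 or 15 h. In those fits the share of the 53 genes called was about that of all probe sets. The authors' 2-factor p gave 48 for food. For the slope, 7 were called, 11 with detected probe sets only, 0 without 0 h or 1 h, 1 without 3 h or 12 h, 2 without 6, 15 or 24 h, and 45 by the authors' food by time p. Of detected probe sets 9.79% were called for the slope, against 5.38% of all probe sets. With detected probe sets only, the pairs gave 1 at 3 h, 9 at 6 h, 17 at 12 h and 18 at 15 h of fed against starved, 6 for refed larvae, 14 for starved hatchlings against embryos, 26 for 24 h of starvation and 9 for 24 h of feeding. The shares of detected probe sets called there were 7.75%, 14.3%, 26.8%, 18.6%, 11.8%, 14.2%, 15.0% and 20.8% in the same order. The recomputed test gave 0 at 6 h, 22 at 24 h and 1 for refed larvae. The shares of all probe sets called by that test were not computed for these pairs, so an excess cannot be read from these counts. The 22 include flp-8, which was higher in fed larvae. No direction was reversed. The authors' primary probe set was the one kept for all 53 genes, so that choice changed nothing. Quantile normalization and median centring gave 2 genes higher with 23 and 31 lower, against 21, and they moved the median over all probe sets by less than 0.1. Over all probe sets they gave 4060 and 4327 lower, against 3777, and 2820 and 2760 higher, against 3054. Dim genes, and the 5 never detected, limit what can be read from low values.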
